A study of Mus musculus with 21 samples.

Results

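The hearts of mice given both a high-fat diet and renin were compared with the hearts of mice given neither. The combined group (high-fat renin) held 5 libraries and the control group (chow control) held 4, taken by their titles from the 21 heart libraries of the series. The other libraries came from 6 hearts with renin on chow (chow renin) and 6 hearts on the high-fat diet without renin (high-fat control). All mice were male C57BL/6NJ, 8 to 10 weeks old when they were randomised to 10 weeks of chow or of a diet with 60% of energy from fat. They were also assigned to renin carried by an adeno-associated virus or to a null vector, both given by retro-orbital injection, and hearts were freeze-clamped 6 weeks later. Chow control mice thus ate chow and, by the series description, carried a null vector, although their sample labels read as no virus. The promoter of the vector and the cells that made the renin are not given in the sources used here, and Ren1, the endogenous renin gene, had too few reads in these hearts to be tested. The study names the combination a model of HFpEF, heart failure in which the ejection fraction is preserved, and the labels carry no measurement of heart function or blood pressure.

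Renin is a protease that cuts angiotensinogen, and the angiotensin II made from its product raises blood pressure through the AT1 receptor. A heart that works against a raised pressure thickens its walls, re-expresses genes of the fetal myocyte and lays down matrix between its cells. A healthy adult heart draws most of its energy from fatty acids, with glucose, lactate, ketones and branched-chain amino acids as further fuels, and a fat-rich diet shifts that supply.

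Library totals did not overlap between the groups, at 18743226 to 21414093 estimated reads in chow control and 23180244 to 29265430 in high-fat renin, so depth and group cannot be told apart by design. Mitochondrially encoded genes took 32.3% to 33.9% and 29.8% to 35.5% of the reads. The label of heart tissue was checked on markers: 8 cardiomyocyte genes summed to 46029 to 68883 CPM (counts-per-million, reads scaled to library size), and 5 lung genes to at most 3.79 CPM. Atrial markers set 2 libraries apart, one in each group: their mean log2 CPM was 4.57 in chow control replicate 3 and 4.17 in high-fat renin replicate 3, against 1.63 to 2.38 in the other 7. These 2 libraries also lay at one end of component 1 of a principal component analysis over 500 highly variable genes (27.4% of the variance), while the second (26.1%) separated the groups. On that second component high-fat renin replicates 1, 2 and 5 lay farther from the controls than replicates 3 and 4, an order that returned in many of the genes below. In bulk tissue, fewer cells of a type and less RNA per cell cannot be told apart.

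Of 15216 genes tested, 1262 (8.29%) were called, where a call is an adjusted p under 0.05 in edgeR's quasi-likelihood F test. Among the calls, 616 were higher in high-fat renin (4.05% of genes tested) and 646 lower (4.25%). Most changes were modest. The median absolute log2 fold change was 0.51 among the higher and 0.44 among the lower calls, and 130 and 90 genes changed at least 2-fold. In 758 genes (4.98%) all 5 high-fat renin libraries stood above all 4 chow control libraries in CPM, and in 771 (5.07%) all stood below. In the sentences that follow, values per library are TMM-normalized CPM in the order of replicate number, and fold changes are log2, high-fat renin over chow control. Leaving out replicate 1, 2 or 4 of chow control brought the count of calls to 691, 623 or 565, and leaving out replicate 1, 2 or 5 of high-fat renin brought it to 664, 793 or 686. A clock score, the mean log2 CPM of genes that peak by day minus that of genes that peak by night, did not overlap between the groups (3.41 to 3.73 in chow control, 2.21 to 3.25 in high-fat renin). With that score as a covariate 0 genes were called by edgeR and 1135 had an unadjusted p under 0.05, against 3643 without it, so every call against chow control below ends under that covariate. With all libraries thinned to the smallest total, 1226 genes were called.

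**Figure D1:**
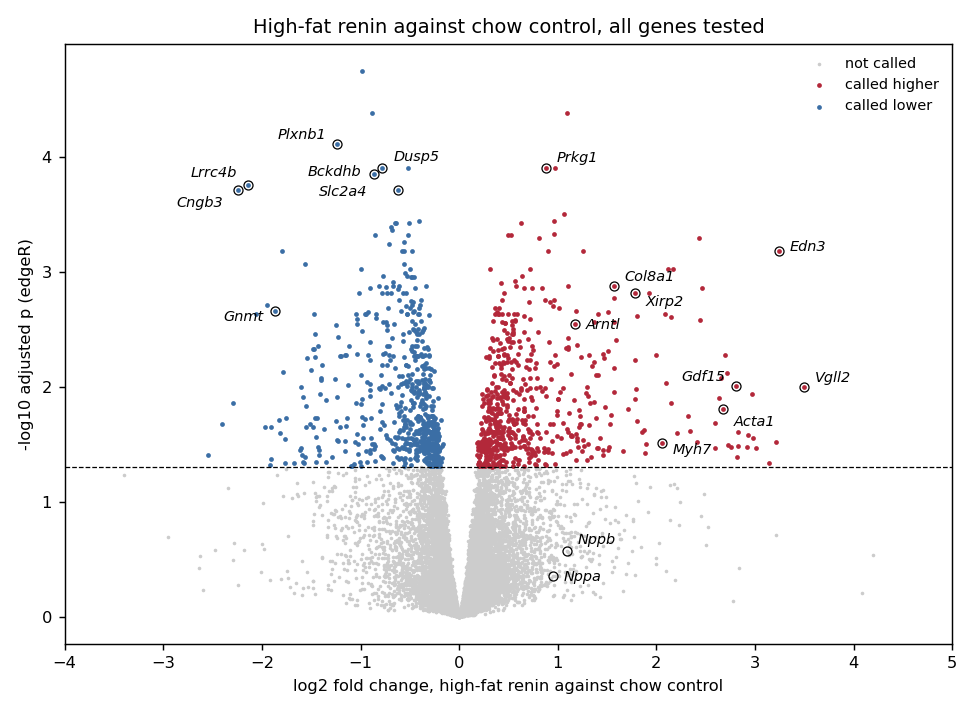
Each point is 1 of the 15216 genes tested, with its log2 fold change (high-fat renin over chow control) on the x axis and -log10 of its edgeR adjusted p on the y axis. Red and blue points are the 616 higher and 646 lower calls above the dashed threshold of 0.05, and circles mark named genes, of which Nppa and Nppb lie below it.

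Gene lists were then read one by one, by how many tested members were called in each direction. The lists with the largest share of higher calls were those of stress-induced myocyte genes (12 of 26), heat shock proteins (8 of 25), the cell cycle (10 of 37), other matrix genes (17 of 71) and collagens (8 of 38). Branched-chain amino acid and ketone use (12 of 25), clock output (8 of 23), the nuclear genes of respiratory complexes II to V (13 of 43) and the sarcomere (7 of 26) had the largest shares of lower calls among the lists plotted. Members of a list were chosen with earlier results of these data known, and the shares are descriptions beside the 4.05% and 4.25% of all genes. Where a list had 0 calls in a direction by edgeR, at most 6 members had an unadjusted p under 0.05 in that direction and DESeq2 called at most 2. Of the 34 counts of 1 to 3 calls in a list, 27 moved by more than 1.5 times when 1 library or another of either group was left out. With the clock score as a covariate list medians moved by unlike amounts on the log2 scale. Some moved away from 0, among them the sarcomere (-0.05 to -0.11), glucose (-0.05 to -0.12), mitochondrial ribosome (-0.04 to -0.13) and mitochondrially encoded (0.05 to 0.18) lists. Others shrank: from 0.95 to 0.12 in stress genes, 0.31 to 0.05 in heat shock, 0.47 to 0.11 in the cell cycle, 0.56 to 0.41 in collagens and 0.42 to 0.27 in other matrix genes. The median of branched-chain and ketone genes went from -0.28 to -0.19 and that of the tricarboxylic acid list from -0.17 to -0.13.

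**Figure D2:**
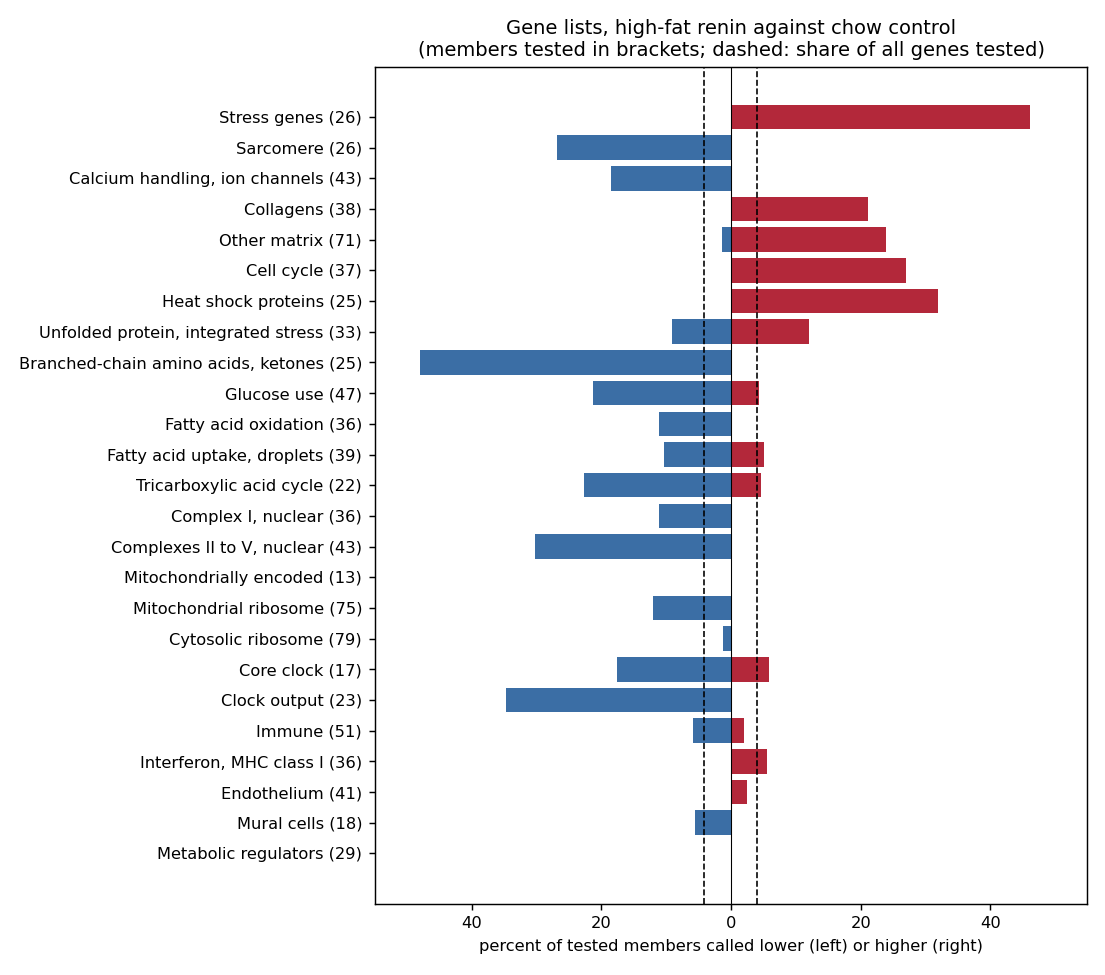
Bars give the percent of each list's tested members (number in brackets) called higher (right, red) or lower (left, blue), with chow control as the reference. The dashed lines mark the shares of all genes tested, 4.05% and 4.25%, and mitochondrially encoded genes and metabolic regulators had 0 calls by edgeR.

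Among stress-induced genes of the cardiomyocyte, calls went in one direction. Of 26 tested members, 12 were called higher and 0 lower, and the median log2 fold change was 0.95, against 0.01 over all genes tested and 0.61 without replicate 1 of high-fat renin. Xirp2 encodes a protein of the intercalated disc and Z-disc that binds actin (ENSMUSG00000027022, chromosome 2, 67446002 to 67526614). It measured 262, 218, 240.2 and 169 CPM in chow control and 1251, 806, 456, 379 and 929 CPM in high-fat renin, a log2 fold change of 1.78 (edgeR adjusted p 0.00152, SE 0.29). The lowest high-fat renin heart thus stood above the highest control. Acta1, the skeletal isoform of sarcomeric actin and a classic gene of the fetal heart (ENSMUSG00000031972, chromosome 8, 123891769 to 123894751), measured 194, 251, 422 and 142 CPM in chow control and 2499, 1840.1, 785, 670.1 and 2291 CPM in high-fat renin. Its log2 fold change was 2.68 (edgeR adjusted p 0.0157, SE 0.63), with replicates 1, 2 and 5 well above replicates 3 and 4. Myh7, the slow myosin heavy chain that dominates the fetal mouse ventricle (ENSMUSG00000053093, chromosome 14, 54970684 to 54994626), measured 584, 459, 744 and 375 CPM in chow control and 3686, 3305, 2158, 1026 and 1041 CPM in high-fat renin. Its log2 fold change was 2.05 (edgeR adjusted p 0.0308, SE 0.56), and here replicate 5 was among the low hearts. Acta1 and Ankrd1 fall outside the naming rule and were chosen after their values were seen. Acta1 lost its call without replicate 1, 2 or 4 of chow control (edgeR adjusted p 0.0512 to 0.0616). Myh7 lost its call without replicate 1, 2 or 4 of chow control or replicate 1 or 2 of high-fat renin (edgeR adjusted p 0.0675 to 0.102).

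Both genes have a close relative that the adult heart uses in its place. Myh7 made up 1.4% ± 0.545 (SD, n = 4) of the summed TPM of Myh6 and Myh7 in chow control and 7.83% ± 4.56 (n = 5) in high-fat renin, with ranges of 0.938% to 2.14% and 3.19% to 13.0%. Acta1 made up 3.09% ± 1.85 of the summed TPM of Acta1 and Actc1 in chow control and 16.4% ± 6.78 in high-fat renin. Neither pair of ranges overlapped. These pairs are near-identical in parts of their sequence, and the split of reads between them is uncertain.

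The 250 bases before the RefSeq start of Acta1 and Myh7 (GRCm38.p6, both on the minus strand, printed 5′ to 3′ in gene direction) are shown because MCAT elements are the sites of TEAD factors in muscle genes. Capitals mark CATTCC or its reverse complement GGAATG, searched as those letters on both strands.
Acta1 promoter, chr8:123894776-123895025: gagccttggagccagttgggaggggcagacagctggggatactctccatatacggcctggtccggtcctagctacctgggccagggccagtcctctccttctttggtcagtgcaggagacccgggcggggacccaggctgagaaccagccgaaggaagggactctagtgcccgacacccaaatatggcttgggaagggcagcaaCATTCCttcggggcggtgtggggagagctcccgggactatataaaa
Myh7 promoter, chr14:54994627-54994876: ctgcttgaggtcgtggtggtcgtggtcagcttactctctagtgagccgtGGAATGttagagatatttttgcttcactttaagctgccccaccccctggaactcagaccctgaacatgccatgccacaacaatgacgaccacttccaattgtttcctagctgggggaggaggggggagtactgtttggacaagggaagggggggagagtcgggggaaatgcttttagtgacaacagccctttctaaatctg
The element began 46 bases before the start of Acta1 and 201 bases before that of Myh7. Of the 12 stress genes called, 5 (Acta1, Ankrd1, Flnc, Gdf15 and Myh7) held it in a window of 250 bases before to 50 after a start, as did 16.6% of 27025 genes and 14.7% of 32851 windows in the RefSeq table. Vgll2, a cofactor of TEAD factors in muscle, is described among the largest rises.

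The other stress genes named here include proteins of the disc and the cytoskeleton. Enah, an actin polymerisation factor found at the intercalated disc, measured 114, 99.2, 121 and 81.01 CPM in chow control and 297, 204, 153, 141 and 248 CPM in high-fat renin, a log2 fold change of 1.01 (edgeR adjusted p 0.00206, SE 0.18). Flnc, the muscle filamin that crosslinks actin at the Z-disc, rose by 0.73 (edgeR adjusted p 0.00441, SE 0.15) from 473 ± 35.4 to 787 ± 192 CPM (SD, n = 4 and 5). Uchl1, a ubiquitin hydrolase best known from neurons, measured 8.87, 7.55, 9.76 and 7.37 CPM in chow control and 18.6, 19.7, 14.0, 13.1 and 16.2 CPM in high-fat renin (0.96, edgeR adjusted p 0.000468). Fhl1, a LIM protein of the sarcomere that takes part in stretch sensing, rose by 0.60 (edgeR adjusted p 0.0052, SE 0.12). Groups did not overlap for any of these 4 genes. Ankrd1, a stretch-responsive protein of the sarcomere and nucleus, measured 748, 654, 1832 and 1132 CPM in chow control and 2839.6, 3453, 2076, 1907 and 3199.8 CPM in high-fat renin, with the highest control, replicate 3, just below the lowest high-fat renin heart. Its log2 fold change was 1.304 (edgeR adjusted p 0.0316, SE 0.36). Rcan1, an inhibitor of calcineurin whose transcript is itself a readout of calcineurin activity, measured 59.6, 55.2, 83.8 and 58.9 CPM in chow control and 314, 156, 86.03, 79.1 and 162 CPM in high-fat renin (1.31 (edgeR adjusted p 0.012, SE 0.30)). Its groups overlapped, since chow control replicate 3 lay between high-fat renin replicates 3 and 4. Fitted on the 9 libraries alone, Rcan1 lost its call (edgeR adjusted p 0.131), and with length-scaled TPM in place of counts Fhl1 did (edgeR adjusted p 0.125). Ankrd1 lost its call without replicate 1, 2 or 4 of chow control or replicate 1, 2 or 5 of high-fat renin (edgeR adjusted p 0.068 to 0.102). The count of stress genes called was 7 without replicate 1, 2 or 4 of chow control, and 7 in the fit on the 9 libraries alone.

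The natriuretic peptides did not pass against chow control. Nppa, the atrial natriuretic peptide, measured 263, 149, 534 and 193 CPM in chow control and 1002, 694, 371, 113 and 576 CPM in high-fat renin, and its log2 fold change was 0.95 (edgeR adjusted p 0.443, SE 0.70). The highest control was replicate 3, the control library rich in atrial markers, and the lowest value of all belonged to high-fat renin replicate 4. Nppb, the B-type natriuretic peptide made by loaded ventricle, measured 99.1, 100.4, 166 and 145 CPM in chow control and 629.9, 275, 107, 102 and 252 CPM in high-fat renin (1.09 (edgeR adjusted p 0.27, SE 0.58)). Replicates 1, 2 and 5 of high-fat renin lay above every control, and replicates 3 and 4 lay within the control range. Nppa is itself one of the 13 atrial markers. The summed CPM of the other 12 was 179, 167, 876 and 143 CPM in chow control and 85.1, 101, 644, 167 and 104 CPM in high-fat renin, high in the same 2 libraries and no higher in replicates 1, 2 and 5 of high-fat renin than in the controls. Over the 12 atrial markers tested, Nppa included, the median log2 fold change was -0.57.

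**Figure D3:**
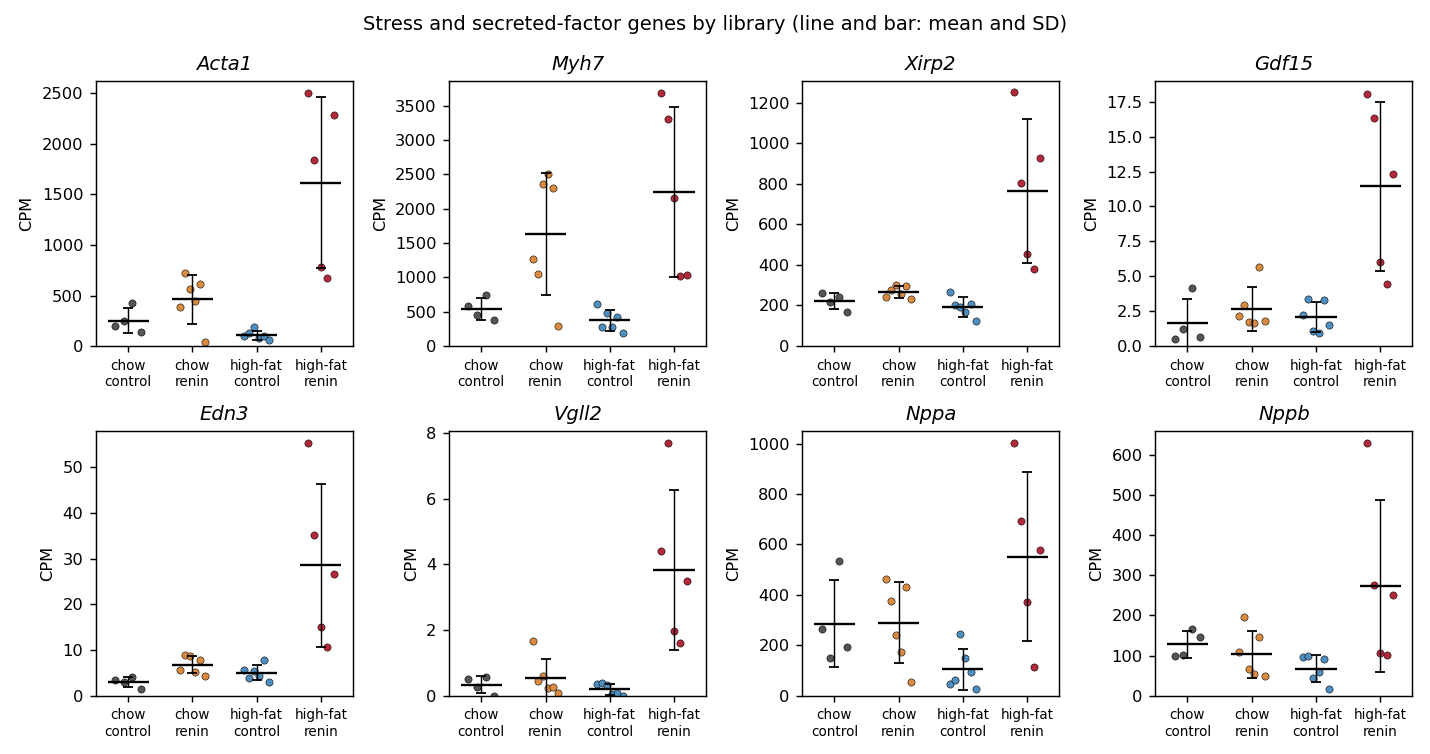
Points are libraries, with TMM-normalized CPM on the y axis for 8 genes, lines are group means and bars are SD (n = 4, 6, 6 and 5 from left to right). Acta1, Myh7, Xirp2, Gdf15, Edn3 and Vgll2 do not overlap between chow control and high-fat renin, while Nppa and Nppb do.

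The largest rises named by rule were those of secreted and regulatory genes and of a family of near-identical repeats. Vgll2, a muscle cofactor of TEAD transcription factors (ENSMUSG00000049641, chromosome 10, 52022502 to 52028471), measured 0.498, 0.278, 0.571 and 0 CPM in chow control and 4.42, 7.69, 1.97, 1.604 and 3.49 CPM in high-fat renin, a log2 fold change of 3.495 (edgeR adjusted p 0.0101, SE 0.79). Edn3, which encodes endothelin 3, a peptide ligand of the endothelin B receptor (ENSMUSG00000027524, chromosome 2, 174760619 to 174784042), measured 3.44, 2.999, 4.21 and 1.45 CPM in chow control and 55.3, 35.2, 15.0, 10.6 and 26.7 CPM in high-fat renin. Its log2 fold change was 3.24 (edgeR adjusted p 0.000659, SE 0.46), a rise of 9.44-fold, and replicates 1, 2 and 5 were again the highest. Gdf15, a stress hormone of the TGF-beta family that acts on appetite through the brain stem (ENSMUSG00000038508, chromosome 8, 70629393 to 70632456), measured 0.498, 1.22, 4.15 and 0.679 CPM in chow control and 18.1, 16.3, 6.03, 4.46 and 12.3 CPM in high-fat renin (2.81 (edgeR adjusted p 0.00987, SE 0.62)). Chow control replicate 3 lay just below high-fat renin replicate 4, the lowest of its group. Gdf15 lost its call in the fit on the 9 libraries alone (edgeR adjusted p 0.0672). The remaining gene outside the repeats was Gm47985, a predicted gene, at 2.97 (edgeR adjusted p 0.0115, SE 0.69). Gm47985 lost its call without replicate 4 of chow control (edgeR adjusted p 0.052).

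The other 8 of the 12 largest rises were Gm10800, Gm10718, Gm10721, Gm10801, Gm11168, Gm10717, Gm10719 and Gm21738. They are predicted genes of near-identical sequence, so reads are divided between them with uncertainty and they are not 8 separate results. Gm10800 measured 2.64, 2.999, 28.7 and 6.496 CPM in chow control and 45.4, 139.9, 93.1, 52.98 and 81.2 CPM in high-fat renin, a log2 fold change of 3.01 (edgeR adjusted p 0.0339, SE 0.84), and the others had log2 fold changes of 2.76 to 2.98. Chow control replicate 3 was the highest control in each. In high-fat control Gm10800 measured 61.6 ± 60.3 CPM (SD, n = 6), and high-fat renin against high-fat control gave 0.42 (edgeR adjusted p 0.734, SE 0.66). Gm10800 lost its call without replicate 1, 2 or 4 of chow control or replicate 1, 2 or 5 of high-fat renin (edgeR adjusted p 0.0511 to 0.109). Gm10718 lost its call without replicate 1, 2 or 4 of chow control or replicate 2 or 5 of high-fat renin (edgeR adjusted p 0.0523 to 0.0864). Gm10721 lost its call without replicate 1, 2 or 4 of chow control or replicate 2 of high-fat renin (edgeR adjusted p 0.059 to 0.0862). Gm10801 lost its call without replicate 1, 2 or 4 of chow control or replicate 1, 2 or 5 of high-fat renin (edgeR adjusted p 0.0508 to 0.105). Gm11168 lost its call without replicate 1, 2 or 4 of chow control or replicate 2 or 5 of high-fat renin (edgeR adjusted p 0.0617 to 0.107). Gm10717 lost its call without replicate 1, 2 or 4 of chow control or replicate 2 of high-fat renin (edgeR adjusted p 0.0525 to 0.0828). Gm10719 lost its call without replicate 1, 2 or 4 of chow control or replicate 1, 2, 3 or 5 of high-fat renin (edgeR adjusted p 0.0543 to 0.124). Gm21738 lost its call without replicate 1, 2 or 4 of chow control or replicate 2 or 5 of high-fat renin (edgeR adjusted p 0.0628 to 0.106).

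Calls among adult sarcomere and ion channel transcripts were lower, by smaller factors. Of 26 sarcomere genes, 7 were called lower and 0 higher, with a median log2 fold change of -0.05 (0.017 without replicate 4 of high-fat renin, and -0.021 to -0.033 without its replicate 3 or replicate 1, 2 or 4 of chow control). Myh6, the fast myosin heavy chain of the adult mouse heart (ENSMUSG00000040752, chromosome 14, 54941921 to 54966927), measured 34137, 35147, 29180 and 33184 CPM in chow control and 21769, 20951, 25870, 26294 and 23215 CPM in high-fat renin, a log2 fold change of -0.48 (edgeR adjusted p 0.0011, SE 0.08). Tnni3, cardiac troponin I, measured 2211, 2274, 1952 and 2338 CPM in chow control and 1427, 1431, 1740.4, 1817 and 1449.6 CPM in high-fat renin (-0.48 (edgeR adjusted p 0.00267, SE 0.09)). Tnnt2 and Myl2, which encode cardiac troponin T and the ventricular regulatory light chain, changed by -0.43 (edgeR adjusted p 0.00344, SE 0.08) and -0.41 (edgeR adjusted p 0.00922, SE 0.09). In all 4 genes every high-fat renin heart lay below every control, and chow control replicate 3 was the lowest control. The summed CPM of the 8 cardiomyocyte markers, of which 6 are also sarcomere genes of this list, was 67042, 68883, 56315 and 65502 CPM in chow control and 47217, 46029, 51912, 53332 and 48154 CPM in high-fat renin. The part of a lower myocyte share in these falls was not tested. Myl2 lost its call without replicate 4 of chow control (edgeR adjusted p 0.0511). The count of sarcomere genes called lower was 3 without replicate 4 of chow control and 4 without replicate 1 or 2 of chow control or replicate 1, 2 or 5 of high-fat renin.

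Among 43 genes of calcium handling and ion channels, 8 were called lower and 0 higher (median log2 fold change -0.16). The transient outward potassium current, which shapes early repolarisation, is carried by the channel subunit Kcnd2 with its partner Kcnip2. Kcnip2 measured 159, 182, 160.2 and 189 CPM in chow control and 67.1, 117, 102, 81.6 and 92.2 CPM in high-fat renin, a log2 fold change of -0.91 (edgeR adjusted p 0.00584, SE 0.19). Kcnd2 measured 20.3, 14.1, 10.7 and 15.4 CPM in chow control and 5.69, 6.42, 9.19, 11.6 and 7.39 CPM in high-fat renin (-0.90 (edgeR adjusted p 0.0094, SE 0.20)), with chow control replicate 3 inside the range of high-fat renin. Pln, the inhibitor of the calcium pump of the sarcoplasmic reticulum, measured 4536, 4426, 3886 and 4387 CPM in chow control and 3069, 3329.7, 3733, 3859 and 3229 CPM in high-fat renin (-0.32 (edgeR adjusted p 0.0213, SE 0.09)). Hrc, a calcium-binding protein of that store, changed by -0.35 (edgeR adjusted p 0.00926, SE 0.08). Atp2a2, the calcium pump itself, did not pass, at -0.31 (edgeR adjusted p 0.118, SE 0.12) with overlapping groups. Pln lost its call without replicate 1, 2 or 4 of chow control or replicate 1 or 5 of high-fat renin (edgeR adjusted p 0.0601 to 0.0736). The count of genes called lower in this list was 4 without replicate 2 or 4 of chow control or replicate 1 or 5 of high-fat renin and 5 without replicate 1 of chow control or replicate 2 of high-fat renin.

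Calls among collagens and other matrix genes were nearly all higher. Of 38 collagen genes, 8 were called higher and 0 lower (median log2 fold change 0.56), and of 71 other matrix genes 17 were called higher and 1 lower (0.42, or 0.65 without replicate 3 of chow control). Col8a1, a short-chain collagen of vessel walls and injured heart (ENSMUSG00000068196, chromosome 16, 57624258 to 57754737), measured 14.9, 14.7, 20.1 and 13.8 CPM in chow control and 71.8, 46.4, 27.4, 30.6 and 59.3 CPM in high-fat renin, a log2 fold change of 1.57 (edgeR adjusted p 0.00133, SE 0.25). Col5a2 and Col15a1 encode a collagen of thin fibrils and a collagen of basement membranes. Col5a2 measured 18.9, 23.7, 32.7 and 19.6 CPM in chow control and 56.3, 43.5, 38.4, 48.6 and 49.5 CPM in high-fat renin (0.996 (edgeR adjusted p 0.00634, SE 0.21)), and Col15a1 rose from 75.7 ± 19.1 to 130.3 ± 23.8 CPM (0.78 (edgeR adjusted p 0.00616, SE 0.16)). Col4a1, the main collagen of basement membranes, measured 329, 342, 358 and 369.9 CPM in chow control and 788, 479, 376, 431 and 645 CPM in high-fat renin (0.64 (edgeR adjusted p 0.0196, SE 0.16)), with replicate 3 close to the controls. In all 4 genes the groups did not overlap.

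The main fibrillar collagens of scar, Col1a1 and Col3a1, did not pass. Col1a1 measured 77.9, 81.3, 155 and 88.5 CPM in chow control and 172, 151, 144, 272 and 162 CPM in high-fat renin, and Col3a1 changed by 0.87 (edgeR adjusted p 0.117, SE 0.33), against 0.84 (edgeR adjusted p 0.137, SE 0.34) for Col1a1. High-fat renin replicate 4 was the highest for both genes, unlike its place in the stress genes. Ccn2 and Tgfb1, a matricellular protein and the growth factor that induces it, did not pass either, at 0.50 (edgeR adjusted p 0.418, SE 0.35) and 0.17 (edgeR adjusted p 0.262, SE 0.09). Col4a1 lost its call without replicate 1 or 2 of chow control or replicate 1 or 5 of high-fat renin (edgeR adjusted p 0.0545 to 0.0612). The count of collagens called higher was 3 without replicate 1 of chow control or replicate 1 of high-fat renin, 4 without replicate 2 of chow control, 14 without replicate 3 of chow control and 14 without both chow control replicate 3 and high-fat renin replicate 3.

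The matrix genes outside the collagens that were called included an enzyme, a transcription factor and secreted proteins. P4ha1, a subunit of the prolyl hydroxylase that collagen folding needs, measured 53.4, 52.7, 54.8 and 41.5 CPM in chow control and 113, 82.9, 73.7, 72.4 and 122 CPM in high-fat renin, a log2 fold change of 0.88 (edgeR adjusted p 0.00175, SE 0.15). Meox1, a transcription factor of activated cardiac fibroblasts, measured 8.42, 8.44, 12.9 and 7.13 CPM in chow control and 31.2, 18.9, 16.6, 15.8 and 23.5 CPM in high-fat renin (1.197 (edgeR adjusted p 0.00432, SE 0.24)). Timp1, an inhibitor of matrix metalloproteinases, measured 1.29, 1.83, 2.803 and 1.11 CPM in chow control and 5.65, 4.41, 3.59, 5.86 and 4.92 CPM in high-fat renin (1.47 (edgeR adjusted p 0.00561, SE 0.31)), and Fbln2, a glycoprotein of elastic fibres, changed by 0.74 (edgeR adjusted p 0.00474, SE 0.15). Groups did not overlap in these 4 genes. Cilp, a secreted matrix protein of cartilage and of fibroblasts, was chosen after its values were seen, and measured 3.29, 2.89, 22.9 and 3.01 CPM in chow control and 65.02, 52.5, 34.9, 31.1 and 58.5 CPM in high-fat renin (2.59 (edgeR adjusted p 0.0341, SE 0.72)).

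Markers of fibroblasts and of valve and epicardium were set beside these genes. The summed CPM of 8 fibroblast markers was 1309, 1203, 2369 and 1420.3 CPM in chow control and 1547, 1758, 2004, 2162 and 1569 CPM in high-fat renin, so chow control replicate 3 exceeded every high-fat renin heart. Col1a1 and Col1a2 are among the 8. The sum of the other 6 was 1116, 1011, 2022 and 1226 CPM in chow control and 1181, 1421, 1679, 1605 and 1227 CPM in high-fat renin. Of 9 valve and epicardium markers, 1 was called higher, Cilp itself, and 1 lower, with a median log2 fold change of -0.56. The summed CPM of the 8 other than Cilp was 28.2, 24.7, 118 and 29.99 CPM in chow control and 19.7, 26.9, 54.0, 63.2 and 20.05 CPM in high-fat renin, highest in chow control replicate 3, with replicates 1, 2 and 5 of high-fat renin no higher than the highest of the other controls and replicates 3 and 4 above them. The part of these tissues in the matrix values was not tested. Cilp lost its call without replicate 1, 2 or 4 of chow control or replicate 1, 2 or 5 of high-fat renin (edgeR adjusted p 0.0619 to 0.114). The count of other matrix genes called higher was 8 without replicate 4 of chow control, 9 without replicate 1 of chow control or replicate 5 of high-fat renin, 10 without replicate 2 of chow control or replicate 1 of high-fat renin, 28 without replicate 3 of chow control and 28 without both chow control replicate 3 and high-fat renin replicate 3. With the atrial score as a covariate 14 collagens and 29 other matrix genes were called higher.

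Genes of cell division were low in these hearts, and their calls were higher. Of 37 cell cycle genes tested, 10 were called higher and 0 lower, with a median log2 fold change of 0.47. Ccnb1, the cyclin that drives entry into mitosis, measured 0.797, 0.9998, 1.298 and 1.16 CPM in chow control and 4.59, 4.17, 1.58, 2.09 and 2.86 CPM in high-fat renin, a log2 fold change of 1.51 (edgeR adjusted p 0.00223, SE 0.28). Its kinase partner Cdk1 measured 1.54, 1.28, 0.986 and 1.16 CPM in chow control and 4.76, 3.98, 2.19, 1.395 and 4.01 CPM in high-fat renin (1.39 (edgeR adjusted p 0.00784, SE 0.31)), with high-fat renin replicate 4 inside the control range. E2f1, a transcription factor of the start of DNA synthesis, measured 1.25, 1.89, 1.45 and 1.697 CPM in chow control and 5.52, 4.02, 2.12, 2.06 and 6.59 CPM in high-fat renin (1.37 (edgeR adjusted p 0.00604, SE 0.30)). Cdkn1a, the inhibitor p21 of the same kinases, is also on the list and was chosen after its values were seen. It measured 11.8, 14.7, 13.8 and 9.55 CPM in chow control and 43.8, 27.3, 17.9, 17.5 and 29.8 CPM in high-fat renin (1.13 (edgeR adjusted p 0.0262, SE 0.30)). Which cells held these transcripts cannot be read from whole tissue. In the fit on the 9 libraries alone 2 cell cycle genes were called, and E2f1 lost its call (edgeR adjusted p 0.0553). Cdkn1a lost its call without replicate 1, 2 or 4 of chow control or replicate 1 or 5 of high-fat renin (edgeR adjusted p 0.0503 to 0.0939). The count of cell cycle genes called was 4 without replicate 4 of chow control, 5 without replicate 1 or 2 of chow control, 6 without replicate 1 or 5 of high-fat renin and 16 without replicate 4 of high-fat renin.

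Calls among heat shock proteins were higher. Of 25 heat shock genes, 8 were called higher and 0 lower (median log2 fold change 0.31). Hspb8, a small heat shock protein that works with BAG3 in muscle, measured 314, 306, 321 and 294 CPM in chow control and 465, 467, 361, 374 and 446 CPM in high-fat renin, a log2 fold change of 0.45 (edgeR adjusted p 0.00802, SE 0.10). Dnaja4, a cochaperone of HSP70, measured 133, 123, 136 and 126 CPM in chow control and 222, 187, 152, 147 and 199 CPM in high-fat renin (0.48 (edgeR adjusted p 0.00524, SE 0.10)). Hspa1l, Hspa8 and Hsp90aa1, which encode members of the HSP70 and HSP90 families, changed by 0.71 (edgeR adjusted p 0.007, SE 0.16), 0.38 (edgeR adjusted p 0.0152, SE 0.09) and 0.65 (edgeR adjusted p 0.0162, SE 0.16). Groups did not overlap in any of these 5. HSP70 genes share long stretches of sequence, and reads between them are uncertain. Hspa8 lost its call without replicate 2 or 4 of chow control (edgeR adjusted p 0.0564 to 0.0642). Hsp90aa1 lost its call without replicate 2 or 4 of chow control (edgeR adjusted p 0.0564 to 0.0684). The count of heat shock genes called was 3 without replicate 4 of chow control, 4 without replicate 2 of chow control and 5 without replicate 1 or 5 of high-fat renin.

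In the list of the unfolded protein and integrated stress responses, 4 of 33 genes were called higher and 3 lower. Atf4, the transcription factor of the integrated stress response, measured 52.4, 53.4, 57.7 and 56.3 CPM in chow control and 82.9, 74.8, 71.4, 62.5 and 73.03 CPM in high-fat renin, a log2 fold change of 0.41 (edgeR adjusted p 0.00232, SE 0.08). Mthfd2, a mitochondrial folate enzyme and a target of ATF4, measured 2.99, 3.17, 3.79 and 2.57 CPM in chow control and 6.62, 6.38, 6.86, 6.77 and 10.8 CPM in high-fat renin (1.26 (edgeR adjusted p 0.000652, SE 0.20)), with replicate 5 the highest. Gdf15, described above, is a target of the same factor. Selenos, a selenoprotein of the endoplasmic reticulum that helps remove misfolded proteins, was lower, at 21.9, 21.4, 23.3 and 21.6 CPM in chow control and 16.6, 14.9, 19.9, 17.7 and 16.8 CPM in high-fat renin (-0.36 (edgeR adjusted p 0.0105, SE 0.08)). Hspa5, the main chaperone of that compartment, did not pass (-0.32 (edgeR adjusted p 0.092, SE 0.12)). Hspa5 passed without replicate 1 of high-fat renin (edgeR adjusted p 0.0388). The count of lower calls was 1 without replicate 1 of chow control, 1 on the 9 libraries alone and 5 by DESeq2.

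Calls among genes of fuel use were mostly lower, and branched-chain amino acid breakdown had the largest share of them. Of 25 genes for the use of branched-chain amino acids and ketones, 12 were called lower and 0 higher (median log2 fold change -0.28), and each of the 12 belongs to the branched-chain or propionate steps. Breakdown starts with a transamination by Bcat2, which measured 102, 98.7, 91.8 and 96.6 CPM in chow control and 61.4, 71.5, 77.7, 68.6 and 64.7 CPM in high-fat renin, a log2 fold change of -0.50 (edgeR adjusted p 0.000944, SE 0.08). The committed step is the branched-chain keto acid dehydrogenase. Its E1 subunit Bckdhb (ENSMUSG00000032263, chromosome 9, 83925145 to 84124240) measured 58.1, 58.05, 47.9 and 61.1 CPM in chow control and 25.5, 31.4, 36.3, 32.4 and 28.8 CPM in high-fat renin (-0.87 (edgeR adjusted p 0.000141, SE 0.11)). The E2 core Dbt measured 72.7, 66.04, 59.5 and 64.04 CPM in chow control and 45.97, 45.1, 46.7, 40.4 and 47.4 CPM in high-fat renin (-0.54 (edgeR adjusted p 0.00152, SE 0.09)). Ppm1k, the phosphatase that switches the complex on, measured 90.2, 85.5, 74.7 and 92.3 CPM in chow control and 34.5, 41.9, 58.5, 52.7 and 41.3 CPM in high-fat renin (-0.90 (edgeR adjusted p 0.00138, SE 0.15)). Mccc2, a subunit of the carboxylase of leucine breakdown, measured 55.7, 54.2, 49.5 and 55.5 CPM in chow control and 39.7, 42.1, 39.98, 42.3 and 37.9 CPM in high-fat renin (-0.41 (edgeR adjusted p 0.000363, SE 0.06)). All 5 high-fat renin hearts lay below all 4 controls in each of these genes, and no library decided any of these calls. Leaving out 1 library at a time gave 9 to 13 lower calls in this list.

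In glucose entry and glycolysis 10 of 47 genes were called lower and 2 higher (median log2 fold change -0.05, or -0.026 to -0.032 without replicate 2 of chow control or replicate 3 or 4 of high-fat renin and -0.086 without replicate 1 of high-fat renin). Slc2a4, the insulin-responsive glucose transporter GLUT4 (ENSMUSG00000018566, chromosome 11, 69942539 to 69948188), measured 381, 390, 315 and 369.7 CPM in chow control and 229.8, 207, 260.4, 243 and 245 CPM in high-fat renin, a log2 fold change of -0.62 (edgeR adjusted p 0.000194, SE 0.08). Slc2a12, a further transporter of the heart, measured 8.42, 10.3, 8.15 and 9.74 CPM in chow control and 4.17, 4.17, 5.78, 5.86 and 5.37 CPM in high-fat renin (-0.85 (edgeR adjusted p 0.00232, SE 0.16)). Pfkfb1, which sets the level of the activator of phosphofructokinase, was among the largest falls, at 17.9, 15.8, 11.9 and 17.6 CPM in chow control and 3.08, 3.05, 6.75, 11.3 and 5.62 CPM in high-fat renin (-1.399 (edgeR adjusted p 0.00845, SE 0.30)). Eno3 and Ldhb, muscle enolase and the heart subunit of lactate dehydrogenase, fell by similar factors, with log2 fold changes of -0.56 (edgeR adjusted p 0.000652, SE 0.09) and -0.40 (edgeR adjusted p 0.00206, SE 0.07). Pdk2, a kinase that switches pyruvate dehydrogenase off, fell from 399 ± 24.1 to 299.6 ± 30.3 CPM (-0.41 (edgeR adjusted p 0.00232, SE 0.08)). Against this direction Pfkp, the platelet-type phosphofructokinase, chosen after its values were seen, measured 65.99, 58.4, 59.6 and 49.3 CPM in chow control and 185, 112, 72.1, 79.7 and 125 CPM in high-fat renin (0.97 (edgeR adjusted p 0.00524, SE 0.20)). The higher calls were 4 without replicate 4 of high-fat renin and 1 without replicate 1, 2, 3 or 4 of chow control or replicate 1, 2 or 5 of high-fat renin. On the 9 libraries alone 6 genes of the list were called lower, and Pfkfb1 and Pfkp lost their calls (edgeR adjusted p 0.0718 and 0.0852).

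Among genes of fatty acid oxidation, 4 of 36 were called lower and 0 higher. Hsd17b10, a dehydrogenase of isoleucine and fatty acid breakdown, measured 95.3, 89.3, 83.8 and 94.1 CPM in chow control and 60.8, 65.2, 64.9, 64.3 and 62.1 CPM in high-fat renin, a log2 fold change of -0.51 (edgeR adjusted p 0.000124, SE 0.07). Echs1, the hydratase of the same spiral, changed by -0.31 (edgeR adjusted p 0.00537, SE 0.07), and Ehhadh, its peroxisomal counterpart, by -0.60 (edgeR adjusted p 0.0146, SE 0.15). Cpt1b, the muscle enzyme that commits fatty acids to the mitochondrion, did not pass, at 637, 633, 608 and 694 CPM in chow control and 659, 698, 724, 722 and 657 CPM in high-fat renin (0.11 (edgeR adjusted p 0.45, SE 0.08)). Ehhadh lost its call without replicate 4 of chow control (edgeR adjusted p 0.0629). The count of oxidation genes called lower was 2 without replicate 4 of chow control.

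Of 39 genes of fatty acid uptake and lipid droplets, 2 were called higher and 4 lower. Fabp3, the fatty acid binding protein of heart, measured 2000.2, 2026, 1814 and 2014 CPM in chow control and 2665, 2906, 2586, 2599 and 2653 CPM in high-fat renin, a log2 fold change of 0.45 (edgeR adjusted p 0.00318, SE 0.09). Cidea, a lipid droplet protein, measured 20.2, 21.3, 18.1 and 21.9 CPM in chow control and 26.9, 32.04, 28.9, 30.2 and 29.9 CPM in high-fat renin (0.54 (edgeR adjusted p 0.00266, SE 0.10)), and Dgat2, which makes triglyceride, changed by -0.53 (edgeR adjusted p 0.00232, SE 0.10). For Fabp3 and Cidea the high-fat renin hearts differed little among themselves, unlike in the stress genes. The count of lower calls in this list was 1 without replicate 2 or 4 of chow control or replicate 1 or 5 of high-fat renin and 2 without replicate 1 of chow control. None of the 29 regulators of metabolism was called by edgeR or DESeq2, and 1 had an unadjusted p under 0.05. Leaving out replicate 3 of chow control gave 2 lower calls, and leaving out replicate 4 of high-fat renin or using length-scaled TPM gave 1. A term for the number in each library's deposited name (library number term) gave 1 higher call. Among them Ppara, the fatty acid receptor, changed by 0.01 (edgeR adjusted p 0.986, SE 0.38) and Ppargc1a, the coactivator of mitochondrial biogenesis, by -0.18 (edgeR adjusted p 0.494, SE 0.14).

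Nuclear genes of the respiratory chain had small log2 fold changes, nearly all below 0. In the tricarboxylic acid cycle and its entry steps, 5 of 22 genes were called lower and 1 higher. Pcx, pyruvate carboxylase, measured 44.7, 40.9, 44.8 and 41.6 CPM in chow control and 22.97, 30.3, 29.04, 23.5 and 25.7 CPM in high-fat renin, a log2 fold change of -0.71 (edgeR adjusted p 0.00057, SE 0.11). Me1, the cytosolic malic enzyme that makes NADPH, measured 114, 121, 113 and 115 CPM in chow control and 144, 189, 147, 153 and 161 CPM in high-fat renin (0.46 (edgeR adjusted p 0.00616, SE 0.10)). Of 36 nuclear genes of complex I, 4 were called lower, and 35 had a log2 fold change below 0. Of 43 nuclear genes of complexes II to V, 13 were called lower, and 42 had one below 0. The medians were -0.18 and -0.21, and over all genes the median was 0.01. Ndufs7, an iron-sulfur subunit of complex I, measured 292, 302, 254 and 292 CPM in chow control and 196, 204, 222, 236 and 205 CPM in high-fat renin (-0.42 (edgeR adjusted p 0.00884, SE 0.10)). Cox7b of complex IV, Atp5o of the ATP synthase and Uqcrc1 of complex III changed by -0.30 (edgeR adjusted p 0.0087, SE 0.07), -0.35 (edgeR adjusted p 0.00923, SE 0.08) and -0.27 (edgeR adjusted p 0.0146, SE 0.07). The 13 tested protein genes of the mitochondrial genome gave 0 calls by edgeR or DESeq2, 1 unadjusted p under 0.05 and a median of 0.05, or 0.025 to 0.032 without replicate 1 of chow control or replicate 2 or 4 of high-fat renin.

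Mitochondrial ribosomal proteins showed 9 of 75 lower calls and 0 higher. Mrpl39, a protein of the large subunit, measured 58.4, 60.05, 50.9 and 63.8 CPM in chow control and 39.3, 43.02, 44.9, 42.6 and 39.1 CPM in high-fat renin, a log2 fold change of -0.48 (edgeR adjusted p 0.000659, SE 0.08). In the cytosolic ribosome 1 of 79 genes was called, and it was Rpl3l, the striated-muscle form of a core protein, at 198, 208, 156 and 199 CPM in chow control and 88.3, 93.6, 152, 171 and 121 CPM in high-fat renin (-0.60 (edgeR adjusted p 0.0238, SE 0.16)). Uqcrc1 lost its call without replicate 4 of chow control (edgeR adjusted p 0.0627). Rpl3l lost its call without replicate 1, 2 or 4 of chow control or replicate 1, 2 or 5 of high-fat renin (edgeR adjusted p 0.0537 to 0.0702). The count of lower calls was 1 without replicate 1, 2 or 4 of chow control or replicate 1 or 5 of high-fat renin and 9 without replicate 4 of high-fat renin in the tricarboxylic acid list, 1 without replicate 1, 2 or 4 of chow control or replicate 1, 2 or 5 of high-fat renin, 7 without both chow control replicate 3 and high-fat renin replicate 3 and 9 without replicate 3 of chow control in complex I, 3 without replicate 4 of chow control, 4 without replicate 2 of chow control or replicate 1 or 5 of high-fat renin and 5 without replicate 1 of chow control in complexes II to V, and 2 without replicate 1 or 2 of chow control, 3 without replicate 4 of chow control, 4 without replicate 1 or 2 of high-fat renin and 5 without replicate 5 of high-fat renin in the mitochondrial ribosome. With no filter on low counts there were 3 lower calls in the tricarboxylic acid list, 1 in complex I and 8 in complexes II to V, and complex I had 7 by DESeq2 or with the atrial score as a covariate.

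**Figure D4:**
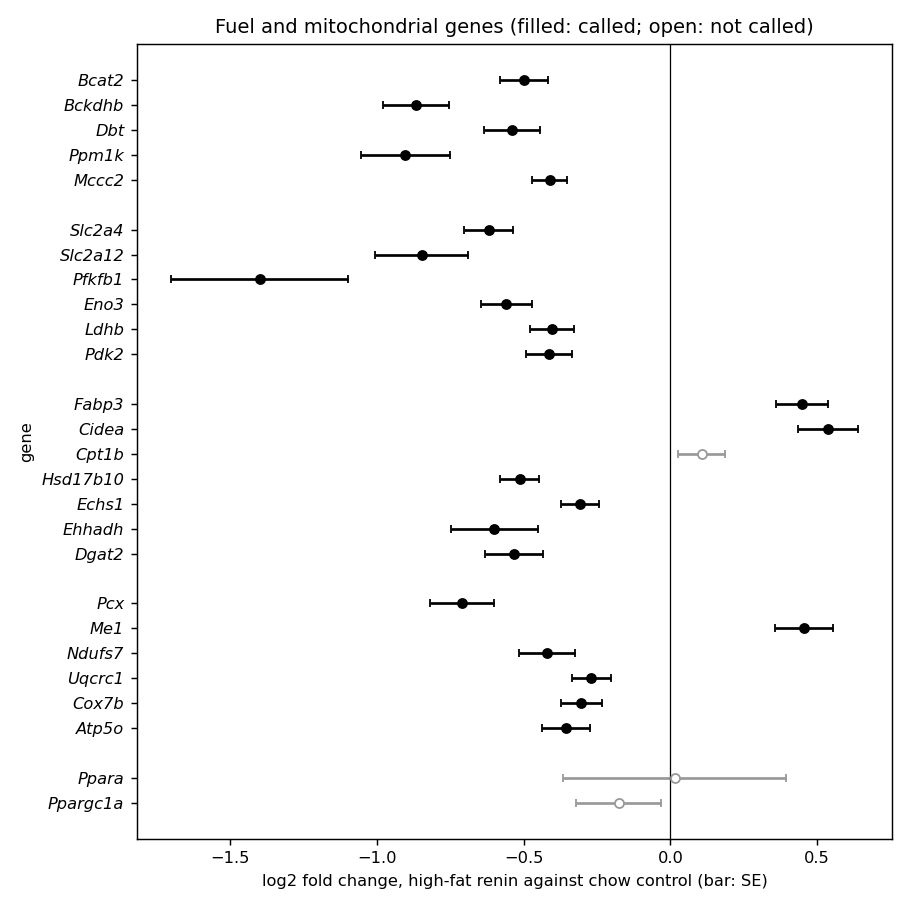
Points are log2 fold changes of named fuel and mitochondrial genes, high-fat renin over chow control, and bars are 1 SE on each side. Filled points were called, and blocks run from branched-chain, glucose and fatty acid genes to the cycle and chain and to 2 regulators, with Fabp3, Cidea and Me1 the filled points to the right of 0.

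Receptors and signalling genes around renin were mostly not called. Of 20 genes of the renin-angiotensin and endothelin systems, 3 were called higher and 1 lower. Agtr1a, the AT1 receptor through which angiotensin II acts, measured 34.7, 39.8, 31.7 and 44.1 CPM in chow control and 19.6, 24.3, 26.2, 25.2 and 16.8 CPM in high-fat renin, a log2 fold change of -0.74 (edgeR adjusted p 0.00271, SE 0.14). Ednrb, the endothelin B receptor that binds the product of Edn3, measured 14.5, 17.5, 19.99 and 14.4 CPM in chow control and 26.3, 25.3, 18.7, 18.97 and 29.5 CPM in high-fat renin (0.52 (edgeR adjusted p 0.0277, SE 0.14)), with high-fat renin replicates 3 and 4 inside the control range. Ace, the enzyme that makes angiotensin II, did not pass, at 0.44 (edgeR adjusted p 0.0696, SE 0.15). Ace passed without replicate 3 of chow control or replicate 3 or 4 of high-fat renin (edgeR adjusted p 0.0376 to 0.0498), with an atrial score as a covariate (0.0303), on the 9 libraries alone (0.0496) and by DESeq2 (adjusted p 0.0297). Agt, which encodes angiotensinogen, and Edn1, endothelin 1, did not pass either, at 0.14 (edgeR adjusted p 0.817, SE 0.30) and -0.23 (edgeR adjusted p 0.462, SE 0.18). Ednrb lost its call without replicate 1, 2 or 4 of chow control or replicate 1, 2 or 5 of high-fat renin (edgeR adjusted p 0.0564 to 0.106). The count of higher calls in this list was 1 without replicate 1, 2 or 4 of chow control or replicate 1, 2 or 5 of high-fat renin.

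Adrenergic, cyclic nucleotide and growth signalling gave small counts of calls. Of 22 adrenergic genes 2 were called higher and 1 lower (13.6%). Of 24 genes of natriuretic peptide and cyclic GMP signalling 1 was called higher and 1 lower (8.33%), beside 8.29% of all genes tested. Prkg1, the cGMP-dependent kinase downstream of nitric oxide and natriuretic peptides, measured 8.42, 7.05, 8.51 and 6.16 CPM in chow control and 15.3, 11.6, 13.6, 13.8 and 14.9 CPM in high-fat renin, a log2 fold change of 0.88 (edgeR adjusted p 0.000124, SE 0.11). Its 5 high-fat renin hearts lay close together, at 13.8 ± 1.45 CPM (SD, n = 5). Nos3, endothelial nitric oxide synthase, did not pass (-0.12 (edgeR adjusted p 0.51, SE 0.10)). Grk5, a kinase that desensitises G protein-coupled receptors, measured 28.6, 29.6, 31.6 and 27.6 CPM in chow control and 61.8, 51.6, 53.9, 60.5 and 58.2 CPM in high-fat renin (0.96 (edgeR adjusted p 0.00176, SE 0.17)). Adcy7, an adenylyl cyclase, rose by 1.08 (edgeR adjusted p 0.00456, SE 0.22), and Adra1d, an alpha-1 adrenergic receptor, changed by -0.79 (edgeR adjusted p 0.0141, SE 0.19). Adra1d lost its call without replicate 2 of chow control (edgeR adjusted p 0.0691).

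Dusp5, a nuclear phosphatase that switches off ERK, measured 9.26, 8.78, 8.62 and 10.96 CPM in chow control and 5.65, 5.02, 5.67, 5.86 and 5.23 CPM in high-fat renin, a log2 fold change of -0.78 (edgeR adjusted p 0.000124, SE 0.10). Among 32 genes of insulin and IGF signalling, 2 were called higher and 2 lower (12.5%, beside 8.29% of all genes tested). Akt2, the AKT kinase of glucose uptake, measured 189.6, 184, 188 and 199 CPM in chow control and 137, 143, 174, 173 and 142 CPM in high-fat renin (-0.31 (edgeR adjusted p 0.012, SE 0.07)), and its groups did not overlap. Irs2, an adaptor of the insulin receptor, measured 22.8, 30.6, 14.8 and 34.03 CPM in chow control and 15.7, 11.3, 10.5, 9.28 and 14.1 CPM in high-fat renin (-1.07 (edgeR adjusted p 0.0465, SE 0.32)), and chow control replicate 3 lay within the range of high-fat renin. Akt2 lost its call without replicate 4 of chow control (edgeR adjusted p 0.0515). Irs2 lost its call without replicate 1, 2 or 4 of chow control or replicate 1, 2, 3, 4 or 5 of high-fat renin (edgeR adjusted p 0.0622 to 0.158).

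Clock genes differed between the groups. The circadian clock is a loop in which BMAL1, encoded by Arntl, and CLOCK switch on Per and Cry genes, whose products then block them, so the level of each transcript depends on the hour of collection, which is not given in the sources used here. Of 17 core clock genes 1 was called higher and 3 lower, and of 23 clock output genes 8 were called lower and 0 higher, with Per1 on both lists. Arntl measured 1.59, 1.67, 2.02 and 2.04 CPM in chow control and 7.63, 2.94, 3.12, 3.104 and 3.98 CPM in high-fat renin, a log2 fold change of 1.17 (edgeR adjusted p 0.00281, SE 0.23). Replicate 1 of high-fat renin was the highest by a wide gap. Per1, a repressor of the loop, measured 99.1, 113, 70.2 and 135 CPM in chow control and 56.0, 77.95, 66.5, 56.6 and 54.5 CPM in high-fat renin (-0.74 (edgeR adjusted p 0.0262, SE 0.20)), and Cry2, its partner, 62.8, 59.9, 49.9 and 62.8 CPM in chow control and 39.9, 42.2, 51.8, 44.7 and 38.02 CPM in high-fat renin (-0.44 (edgeR adjusted p 0.00332, SE 0.09)). In both genes chow control replicate 3 lay inside the range of high-fat renin. Csnk1e, a kinase that marks PER proteins for removal, changed by -0.34 (edgeR adjusted p 0.00616, SE 0.07).

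The 8 output genes called were lower, as Per1 was. Ciart, a repressor of the CLOCK complex, measured 24.6, 19.9, 16.2 and 28.3 CPM in chow control and 14.2, 8.696, 12.2, 10.2 and 10.04 CPM in high-fat renin, a log2 fold change of -1.01 (edgeR adjusted p 0.00152, SE 0.17). Dbp, a transcription factor driven by that complex, measured 145, 131, 139 and 158 CPM in chow control and 73.8, 85.4, 117, 130.1 and 89.7 CPM in high-fat renin (-0.53 (edgeR adjusted p 0.0195, SE 0.14)). Usp2, a deubiquitinase with a daily rhythm, changed by -0.46 (edgeR adjusted p 0.00217, SE 0.08), and Cirbp, an RNA-binding protein induced by cold, by -0.65 (edgeR adjusted p 0.00684, SE 0.14). The clock score over 9 day and 5 night genes was 3.67, 3.61, 3.41 and 3.73 in chow control and 2.21, 2.85, 3.25, 3.21 and 2.82 in high-fat renin. High-fat renin replicates 1, 2 and 5, which stood farthest from the controls in Xirp2, Acta1 and Edn3, also had the lowest clock scores. The hour of collection and the treatment cannot be told apart. Per1 lost its call without replicate 1, 2 or 4 of chow control or replicate 1 or 5 of high-fat renin (edgeR adjusted p 0.0502 to 0.11). Dbp lost its call without replicate 4 of chow control or replicate 2 or 5 of high-fat renin (edgeR adjusted p 0.0518 to 0.0726). The count of clock output genes called lower was 4 without replicate 1 or 4 of chow control or replicate 5 of high-fat renin and 5 without replicate 2 of chow control or replicate 2 of high-fat renin.

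The promoters of Ciart and Per1 are printed because the E-box CACGTG is the site that CLOCK and BMAL1 bind. Each is the 250 bases before the RefSeq start (GRCm38.p6, Ciart on the minus and Per1 on the plus strand, 5′ to 3′ in gene direction), and capitals mark the E-box, a palindrome that reads the same on both strands.
Ciart promoter, chr3:95882229-95882478: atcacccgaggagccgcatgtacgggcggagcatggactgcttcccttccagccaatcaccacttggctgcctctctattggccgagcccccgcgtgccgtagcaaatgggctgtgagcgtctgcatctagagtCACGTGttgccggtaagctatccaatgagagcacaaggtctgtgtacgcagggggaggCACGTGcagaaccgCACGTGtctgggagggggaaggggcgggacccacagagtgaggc
Per1 promoter, chr11:69098699-69098948: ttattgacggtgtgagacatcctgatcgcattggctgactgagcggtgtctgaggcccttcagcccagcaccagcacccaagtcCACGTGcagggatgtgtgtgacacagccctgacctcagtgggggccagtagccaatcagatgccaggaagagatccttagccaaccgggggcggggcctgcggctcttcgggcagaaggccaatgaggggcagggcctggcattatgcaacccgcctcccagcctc
Ciart held 3 E-boxes, which began 116, 58 and 44 bases before the start, and Per1 held 1, which began 166 bases before. Of the 11 clock genes called, 10 had a window of 250 bases before to 50 after a start, and 3 (Ciart, Per1 and Tef) held an E-box in it, as did 8.09% of 27025 genes and 7.15% of 32851 windows.

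**Figure D5:**
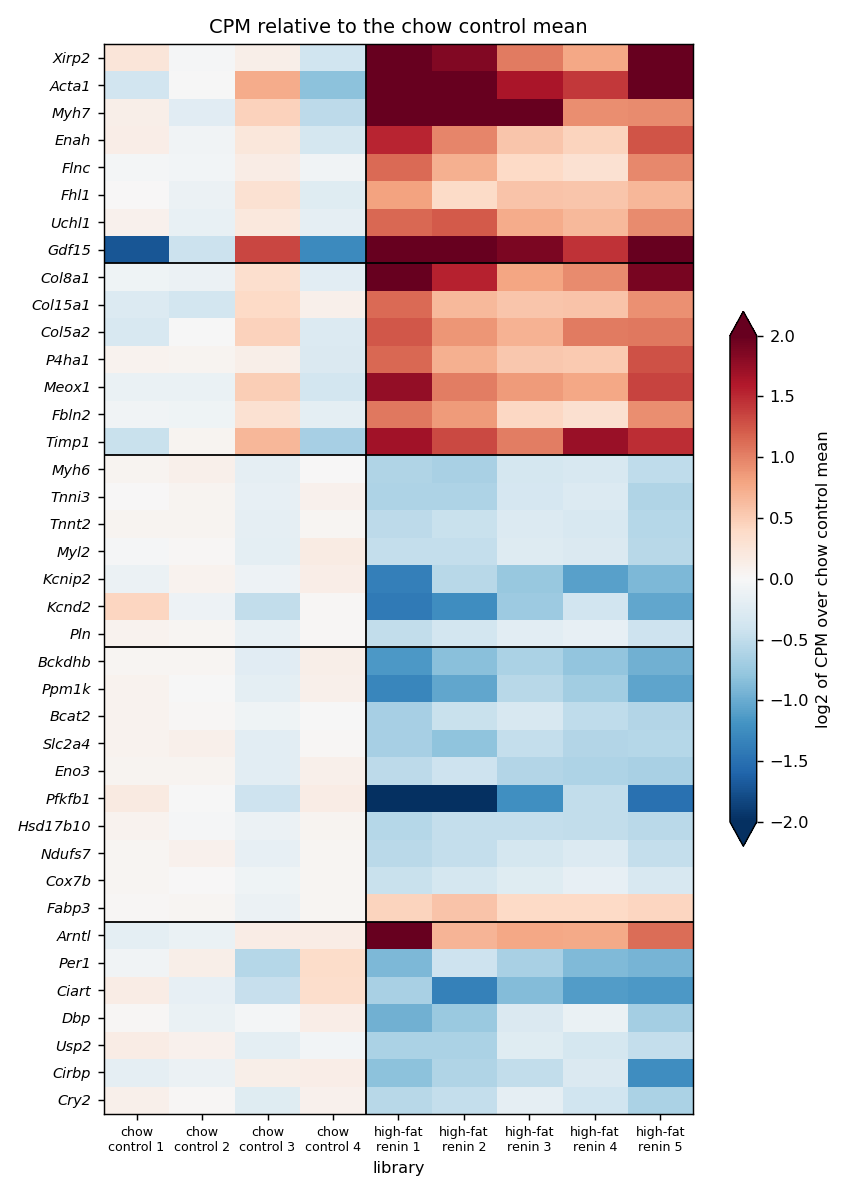
Colours give the log2 of each library's CPM over the chow control mean (red higher, blue lower, capped at 2 on either side) for 9 libraries in columns and named genes in rows, in blocks of stress, matrix, sarcomere and ion channel, fuel and clock genes. High-fat renin replicates 1, 2 and 5 are deeper in colour than replicates 3 and 4 in most stress and sarcomere rows, and Fabp3 is even across the 5.

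Immediate early genes, which many stimuli switch on fast, split in direction, with 2 of 24 called higher and 2 lower. Nr4a1, an orphan nuclear receptor of this kind, measured 91.6, 84.1, 66.8 and 127 CPM in chow control and 25.1, 31.3, 28.4, 40.8 and 28.04 CPM in high-fat renin, a log2 fold change of -1.59 (edgeR adjusted p 0.0447, SE 0.47). Its relative Nr4a2 measured 6.23, 4.61, 3.89 and 8.58 CPM in chow control and 2.36, 2.47, 2.62, 3.59 and 2.41 CPM in high-fat renin (-1.11 (edgeR adjusted p 0.00441, SE 0.23)), and the transcription factor Egr3 measured 2.34, 1.83, 2.34 and 3.68 CPM in chow control and 5.23, 6.14, 4.24, 3.52 and 4.499 CPM in high-fat renin (0.88 (edgeR adjusted p 0.012, SE 0.21)). Nr4a2 lost its call with length-scaled TPM (edgeR adjusted p 0.225). Nr4a1 lost its call without replicate 1, 2 or 4 of chow control or replicate 1, 2, 3 or 5 of high-fat renin (edgeR adjusted p 0.0693 to 0.136). Egr3 lost its call without replicate 2 of chow control (edgeR adjusted p 0.0581).

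Immune and endothelial lists were near the background of all genes. Of 51 immune genes, 1 was called higher and 3 lower. Ccl11, the chemokine eotaxin, measured 5.03, 3.89, 2.803 and 3.68 CPM in chow control and 0.548, 0.309, 1.76, 2.37 and 0.628 CPM in high-fat renin, a log2 fold change of -1.76 (edgeR adjusted p 0.0188, SE 0.44), with replicates 3 and 4 nearest to the controls. Folr2, a marker of resident macrophages, was lower at -0.55 (edgeR adjusted p 0.042, SE 0.17), and Tlr4, the receptor for endotoxin, was higher at 0.76 (edgeR adjusted p 0.0384, SE 0.23). Cd68, a general macrophage gene, and Ccr2, a receptor of recruited monocytes, did not pass, at -0.06 (edgeR adjusted p 0.874, SE 0.19) and 0.81 (edgeR adjusted p 0.331, SE 0.49). The summed CPM of 8 macrophage markers was 157, 148, 162 and 118 CPM in chow control and 151, 126, 130.2, 130.2 and 138 CPM in high-fat renin, with overlapping groups. Rsad2, an antiviral gene induced by interferon, was 1 of 2 higher calls among 36 interferon and MHC class I genes, at 11.8, 11.9, 13.03 and 11.01 CPM in chow control and 22.1, 17.9, 19.6, 17.8 and 22.1 CPM in high-fat renin (0.74 (edgeR adjusted p 0.00137, SE 0.13)). Of 41 endothelial and angiogenic genes 1 was called, and Vegfa, the main growth factor of vessels, did not pass (0.17 (edgeR adjusted p 0.478, SE 0.14)). Ccl11 lost its call without replicate 1 of chow control or replicate 1 or 5 of high-fat renin (edgeR adjusted p 0.051 to 0.0596). Folr2 lost its call without replicate 1, 2 or 3 of chow control or replicate 1, 2, 4 or 5 of high-fat renin (edgeR adjusted p 0.0595 to 0.103). Tlr4 lost its call without replicate 1, 2, 3 or 4 of chow control or replicate 1 or 5 of high-fat renin (edgeR adjusted p 0.0602 to 0.124).

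Further named calls were of genes with unlike roles. Hopx, a homeodomain protein of cardiac development that binds no DNA, measured 224, 240.1, 191 and 263 CPM in chow control and 107, 144, 168, 167 and 105 CPM in high-fat renin, a log2 fold change of -0.73 (edgeR adjusted p 0.00152, SE 0.13). Bnip3, a receptor for mitophagy, measured 125, 132, 119.5 and 123 CPM in chow control and 192, 219.8, 174, 146 and 195 CPM in high-fat renin (0.57 (edgeR adjusted p 0.0026, SE 0.11)). Gstm7, a glutathione transferase, changed by -0.68 (edgeR adjusted p 0.000429, SE 0.10). Aqp8, a water and peroxide channel, rose by 2.34 (edgeR adjusted p 0.0243, SE 0.61) from 2.71 ± 1.3 to 13.9 ± 9.47 CPM, with replicate 4 inside the control range and replicate 3 just above it. Aqp8 lost its call without replicate 1, 2 or 4 of chow control or replicate 1, 2 or 5 of high-fat renin (edgeR adjusted p 0.0524 to 0.079).

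The largest falls were of genes with unrelated roles. Lrrc4b, a synaptic adhesion protein (ENSMUSG00000047085, chromosome 7, 44429018 to 44463351), measured 21.4, 22.7, 12.3 and 26.5 CPM in chow control and 4.76, 3.86, 6.25, 4.604 and 4.01 CPM in high-fat renin, a log2 fold change of -2.14 (edgeR adjusted p 0.000173, SE 0.26). Its 5 high-fat renin hearts were close together, and the lowest control was replicate 3. Cngb3, a subunit of the cone photoreceptor channel (ENSMUSG00000056494, chromosome 4, 19280850 to 19510623), measured 3.93, 2.28, 1.87 and 4.02 CPM in chow control and 0.464, 0.773, 0.431, 0.907 and 0.593 CPM in high-fat renin (-2.25 (edgeR adjusted p 0.000194, SE 0.30)). Plxnb1, a semaphorin receptor (ENSMUSG00000053646, chromosome 9, 109095389 to 109119917), measured 81.7, 83.2, 60.4 and 78.3 CPM in chow control and 24.1, 30.3, 36.3, 40.6 and 29.3 CPM in high-fat renin (-1.24 (edgeR adjusted p 7.69e-05, SE 0.14)). Gnmt, which uses S-adenosylmethionine to methylate glycine, measured 2.49, 1.83, 2.18 and 2.81 CPM in chow control and 0.379, 0.618, 1.04, 0.802 and 0.314 CPM in high-fat renin (-1.87 (edgeR adjusted p 0.00217, SE 0.34)). Mylk4, a kinase of the myosin light chain kinase family, fell from 317 ± 84.5 to 135 ± 22.2 CPM (-1.23 (edgeR adjusted p 0.0123, SE 0.28)). Ramp1, which completes the receptor for the vasodilator CGRP, measured 4.03, 4.78, 7.16 and 7.61 CPM in chow control and 1.601, 1.31, 3.23, 3.77 and 1.604 CPM in high-fat renin (-1.35 (edgeR adjusted p 0.0131, SE 0.32)). Hsbp1l1 and the predicted gene Gm49486 changed by -1.26 (edgeR adjusted p 0.00851, SE 0.28) and -1.56 (edgeR adjusted p 0.0226, SE 0.41). The groups did not overlap in any of these 8 genes, which the naming rule required. Mylk4 lost its call without replicate 2 of chow control (edgeR adjusted p 0.0502). Ramp1 lost its call without replicate 4 of chow control (edgeR adjusted p 0.0568). Gm49486 lost its call without replicate 1 or 2 of chow control or replicate 1 or 2 of high-fat renin (edgeR adjusted p 0.0507 to 0.0791).

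The same libraries were set beside high-fat control, the group on the same diet without renin. In that comparison 1696 of 15216 genes were called (11.1%), 923 higher (6.07%) and 773 lower (5.08%). It reuses the high-fat renin libraries that decided which genes were named, so a pass in it is not independent of the naming. Of the 12 largest rises, Vgll2, Edn3 and Gdf15 passed there, while Gm47985 (1.52 (edgeR adjusted p 0.0641, SE 0.52)) and the 8 repeat genes (edgeR adjusted p 0.687 to 0.811) did not. Acta1 measured 108 ± 43.99 CPM in high-fat control (SD, n = 6), and high-fat renin against that group gave a log2 fold change of 3.91 (edgeR adjusted p 0.00106, SE 0.57). For Xirp2 these values were 193 ± 47.8 CPM and 1.98 (edgeR adjusted p 0.000442, SE 0.25), for Edn3 5.03 ± 1.69 CPM and 2.503 (edgeR adjusted p 0.00106, SE 0.37), and for Vgll2 0.197 ± 0.172 CPM and 4.24 (edgeR adjusted p 0.0015, SE 0.70). Col8a1 measured 15.2 ± 2.67 CPM in high-fat control and gave 1.62 (edgeR adjusted p 0.00048, SE 0.22). Hopx measured 234 ± 27.6 CPM and gave -0.76 (edgeR adjusted p 0.000774, SE 0.12). Nppa gave 2.403 (edgeR adjusted p 0.024, SE 0.64) and Nppb 2.01 (edgeR adjusted p 0.0217, SE 0.53) there. Nppa lost that call without replicate 1, 2 or 5 of high-fat renin (2.06 to 2.39, edgeR adjusted p 0.0529 to 0.084), and Nppb without replicate 1 (1.43, edgeR adjusted p 0.105) or with the library number term (edgeR adjusted p 0.0606). With the clock score as a covariate 8 of the 1696 calls remained, and none of the genes with values in this comparison was among them. The log2 fold changes left were 3.05 for Acta1, 3.29 for Vgll2, 1.298 for Xirp2, 1.51 for Edn3, 1.03 for Col8a1, -0.53 for Hopx, 1.44 for Gdf15, 1.47 for Nppa and 0.7014 for Nppb (edgeR adjusted p 0.0642 to 0.78), and -0.23 for Slc2a4 and -0.29 for Bckdhb (edgeR adjusted p 0.485 and 0.44). Slc2a4, below, also lost its call with length-scaled TPM (edgeR adjusted p 0.0582).

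Other genes lay in high-fat control between the groups or level with high-fat renin. Fabp3 measured 2555 ± 346 CPM there, and high-fat renin against that group gave 0.07 (edgeR adjusted p 0.623, SE 0.08). Slc2a4 measured 293 ± 31.6 CPM (-0.31 (edgeR adjusted p 0.0124, SE 0.08)) and Bckdhb 44.4 ± 8.296 CPM (-0.52 (edgeR adjusted p 0.0029, SE 0.10)). Dbt measured 49.6 ± 7.31 CPM, and its difference from high-fat renin did not pass (-0.14 (edgeR adjusted p 0.326, SE 0.09)). Nor did those of Slc2a12 (-0.27 (edgeR adjusted p 0.254, SE 0.15)), Pcx (-0.22 (edgeR adjusted p 0.149, SE 0.10)), Mylk4 (-0.43 (edgeR adjusted p 0.307, SE 0.26)), Nr4a1 (-0.18 (edgeR adjusted p 0.834, SE 0.43)) and Irs2 (-0.16 (edgeR adjusted p 0.787, SE 0.30)) pass. Dusp5 did not pass at -0.25 (edgeR adjusted p 0.0736, SE 0.09) and measured 6.55 ± 0.781 CPM in high-fat control and 14.2 ± 1.07 CPM in chow renin (SD, n = 6 each).

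In chow renin, the group with renin and no high-fat diet, Acta1 measured 462 ± 239 CPM, Xirp2 267 ± 28.3, Edn3 6.82 ± 1.95 and Gdf15 2.65 ± 1.55 (SD, n = 6). Uchl1 and Timp1 measured 15.9 ± 2.67 and 5.47 ± 1.05 CPM in chow renin, level with 16.3 ± 2.84 and 4.88 ± 0.927 CPM in high-fat renin. Summed central neuron markers were 248 to 375 CPM in chow renin and 85.3 to 138 CPM in high-fat renin, and their part in Uchl1 was not tested. Myh7 measured 1631 ± 895 CPM in chow renin and 377 ± 154 CPM in high-fat control. Replicate 6 of chow renin lay far below the others of its group. It had 30.6 TPM of Acta1 and 45.6 TPM of Myh7, against 303 to 525 and 164 to 425 TPM. Comparisons of the single interventions with chow control share its 4 libraries with the comparison reported here, and their tests are not used here.

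The authors' deposited table holds log2 fold changes with adjusted p-values for 1 comparison of their own, with no reference group stated. The authors' deposited table gave 1296 of 16122 adjusted p-values under 0.05, 615 with a fold change above 0 and 681 below, and 1283 of the 1296 were tested here. Of the calls made here, 970 were also under 0.05 in the authors' deposited table, 76.9% of the calls here and 75.6% of those 1283, and all 970 had the same sign. The median absolute log2 fold change of these 970 was 0.382 in the authors' deposited table and 0.508 here. Acta1 was listed at 1.95, Edn3 at 2.95, Xirp2 at 1.64 and Lrrc4b at -2.04 in the authors' deposited table. Vgll2 and Gm10800 were listed at 2.37 and 1.47, below their values here. Nr4a1 (-0.37), Nr4a2 (-0.20) and Fhl1 (0.22), called here, did not have an adjusted p under 0.05 there.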

How the data were processed

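RNA from 21 mouse hearts was analysed as 1 library per heart, and 9 of them make up the comparison. Titles of the samples gave the group and the replicate number. Per the submitters' processing notes, Salmon 1.10.2 and DESeq2 1.40.2 were used with the builds GRCm38 and mm10. The deposited tables of each library give estimated counts per transcript, with decimals and not normalized, and TPM, both made by the authors. A further deposited table of the series gives the authors' log2 fold change and adjusted p-value of 1 comparison. Its 21 columns of values per library were not used.

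Estimated counts were summed to genes through GENCODE M21 (GRCm38) and rounded, although raw counts had been assumed when the tests were chosen. Transcripts without a match held 0.857% to 0.925% of the reads of the 9 libraries and were left out. Where genes shared a symbol, it stayed with the gene of most reads. Of 23855 genes with reads, filterByExpr kept 15216. Counts were fitted in edgeR 4.0.16 (R 4.3.3) with TMM factors, a term per group over all 21 libraries, which share one estimate of the spread (common biological coefficient of variation 0.154), robust settings and edgeR's F test on quasi-likelihood. P-values were adjusted by Benjamini-Hochberg across every gene tested, with a call at an adjusted p under 0.05. Marker sums are CPM scaled over all genes with reads. SE is the absolute log2 fold change over the square root of F. The fit was also run on simulated counts, and its outcome there is not reported here.

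Library totals were 18743226 to 29265430 estimated reads in the 9 libraries. Pairs of libraries of the same group differed beyond sampling noise (chi-square per degree of freedom 3.51 to 55.6), so none was a copy. P-values measure the spread between these samples. Promoters are RefSeq windows of GRCm38.p6, 250 bases before to 50 after a start.

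The members, gene lists and marker lists were chosen with earlier results of these data known. Genes were named by a rule: the 12 largest rises and falls among called protein-coding genes whose groups do not overlap and whose mean is at least 1 CPM, the called members with the 5 smallest p in each list, and a set of well-known genes whatever their result. Of these, Fgf21 was not tested. Acta1, Ankrd1, Cilp, Cdkn1a, Pfkp, Kyat3, Rbfox1, Atp8a2, Gcdh, Gpt and Ube2c were chosen after their values were seen. Alternatives covered the scaling, the filter, DESeq2 1.42.0, a replicate block, covariates and each library left out. Xist was not analysed here, and some genes that the rule names are not reported here.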

Additional observations from a re-analysis of the deposited data

Results flagged for a closer look

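In 276 groups of 4 or 5 libraries tested, over the named genes, 19 had a library whose distance to the nearest of the others was too large for its group's range by Dixon's criterion, where chance gives about 1 in 20 groups. Of these, 10 were in chow control replicate 3, the control library rich in atrial markers. It was high for Flnc at 526 CPM (nearest library 462), for Rcan1 at 83.8 (59.6), for Col1a1 at 155 (88.5) and for Cilp at 22.9 (3.29). Among the near-identical repeat genes, whose reads are divided with uncertainty, it was high for Gm10800 at 28.7 CPM (6.50), Gm11168 at 7.37 (1.84) and Gm10717 at 2.60 (0.873). It was low for Tnnt2 at 6650 CPM (7760), Fabp3 at 1810 (2000) and Echs1 at 233 (251). Chow control replicate 4 was low for P4ha1 at 41.5 CPM (52.7) and high for Pdk2 at 435 (389) and Gcdh at 75.2 (64.9).

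In high-fat renin, replicate 1 was high for Arntl at 7.63 CPM (nearest library 3.98) and for Vegfa at 422 (322). Replicate 2 was high for Fabp3 at 2910 CPM (2660), and replicate 5 for Mthfd2 at 10.8 (6.86). Replicate 4 was high for Col1a1 at 272 CPM (172) and for Nr4a2 at 3.59 (2.62), where in Xirp2, Acta1 and Myh7 it was the lowest of its group. Dixon's criterion itself requires that the other libraries of a group spread less than the distance of the library named. No cause was tested.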

How the results depend on the processing

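High-fat renin against chow control gave 1262 calls. RLE or upper-quartile scaling gave 1265 and 1308, a filter at 1 CPM 1289, no filter 979, DESeq2 1622, an atrial score as a covariate 1549, a library number term 1616, leaving out mitochondrially encoded genes 1267, length-scaled TPM 847, and leaving out both libraries with atrial transcripts, chosen after seeing the data, 1373. The library number term marks a number under 200 in the deposited name, and the labels do not say what that number stands for. It was under 200 only in chow control replicates 1 and 2 and high-fat renin replicate 1. Fitting only the 9 libraries gave 803 calls, and a clock score as a covariate gave 0 by edgeR. Leaving out 1 library at a time gave 565 to 1723. High-fat renin against high-fat control gave 1696 calls, 8 with the clock score, 1081 with length-scaled TPM, 2176 by DESeq2 and 696 to 2394 when 1 library was left out.

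Replicate numbers are shared between groups, but the labels do not say that they mark a shared animal, litter or day. The deviations of same-numbered libraries correlated at 0.109, 0.0385, 0.295 and 0.0213, and each library correlated best with its own number only for 1 and 3. With the replicate number as a block, 1325 genes were called, 1090 of them shared with the 1262, and 1578 against high-fat control. The block brought higher calls from 10 to 6 in the cell cycle list, where 1 gene was called lower, and lower calls from 4 to 10 in complex I.

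No count of calls over all genes and no called gene named changed direction, while the medians of 10 of 37 gene lists, each within 0.053 of 0 on the log2 scale, changed sign under some alternative. Of 118 called genes named, 37 lost the call in at least 1 fit with a library left out and 81 kept it in each. The clock score ended all 118 (lowest edgeR adjusted p 0.223), the 9 libraries alone 22, the block 13, no filter 10, and length-scaled TPM 6. The cause of these losses was not tested. Genes under about 1 CPM rest on few reads in each library, and the filter removed those with fewer. The single interventions against chow control, planned at the outset, are not used here.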

Other observations

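Further genes with small p that belong to no comparison above are described here as values, chosen after they were seen. Kyat3, an aminotransferase of kynurenine and of other amino acids, measured 31.5, 30.2, 25.9 and 32.97 CPM in chow control and 12.3, 15.6, 16.8, 16.8 and 14.6 CPM in high-fat renin, a log2 fold change of -0.98 (edgeR adjusted p 1.79e-05, SE 0.10). Gcdh, a dehydrogenase of lysine and tryptophan breakdown, and Gpt, alanine aminotransferase, were lower too, at -0.64 (edgeR adjusted p 0.000373, SE 0.09) and -0.85 (edgeR adjusted p 0.000478, SE 0.13). Rbfox1, a splicing regulator of muscle and neurons, measured 40.1, 37.4, 32.9 and 41.2 CPM in chow control and 17.1, 20.1, 23.3, 23.96 and 18.3 CPM in high-fat renin (-0.88 (edgeR adjusted p 4.11e-05, SE 0.10)). In these 4 genes every high-fat renin heart lay below every control.

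Among the higher genes of this kind Atp8a2, a phospholipid flippase, measured 9.56, 9.44, 9.92 and 8.096 CPM in chow control and 22.04, 21.9, 17.7, 16.95 and 20.1 CPM in high-fat renin (1.09 (edgeR adjusted p 4.11e-05, SE 0.13)), and the mitotic ubiquitin ligase partner Ube2c, 0.747, 0.611, 1.09 and 0.6302 CPM in chow control and 7.84, 3.59, 2.55, 1.64 and 5.41 CPM in high-fat renin (2.44 (edgeR adjusted p 0.000503, SE 0.37)). The groups did not overlap in either of these 2 genes, and each kept its call in every fit that left out 1 library. With length-scaled TPM in place of counts Atp8a2 lost it (edgeR adjusted p 0.0886).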
